A study of Homo sapiens with 16 samples.

Results

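The 2 control states of U2OS, a human osteosarcoma cell line, were compared: cells transfected with a control siRNA and cells transfected with a control plasmid. Members were taken from the labels alone, and made up 4 of the series' 16 libraries, 2 per state. The control siRNA was a mammalian non-targeting pool (Lincode, Dharmacon) at 50 nM. The control plasmid was pcDNA3.1(+), given at 100 ng per 20000 cells. Both were delivered to wild-type U2OS cells with Lipofectamine 3000, and cells were harvested after 48 h in both. Neither reagent is directed at a gene of the cell, so a difference between the groups is a difference of 2 control states. No untransfected or mock-transfected library was analysed here, so a gene called higher with siRNA may equally be called lower with plasmid. The labels give neither the transfection day nor the sequencing run, so delivery mode and batch cannot be told apart. Nor do they say that replicate libraries are separate cultures, and p-values therefore cover the spread between these samples alone, which may be technical. The series also holds 4 further U2OS libraries with the same delivery modes: 2 with an siRNA pool against SAM68, an RNA-binding protein encoded by KHDRBS1, and 2 with a plasmid carrying the mouse SAM68 gene.

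An siRNA is a short RNA duplex that is loaded into an Argonaute protein and guides it to matching mRNAs, and a non-targeting pool occupies the same machinery without an intended target. A plasmid is double-stranded DNA that must reach the nucleus to be transcribed. Double-stranded RNA in the cytosol is sensed by RIG-I, MDA5 and PKR, and DNA there by cGAS, which signals through STING. Both routes can end in interferon production and the induction of interferon-stimulated genes, while lipid carriers by themselves can burden lysosomes and membranes.

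Total expected counts were 20546956 and 25764664 with control siRNA and 14097320 and 22392590 with control plasmid, and the 4 SAM68 libraries had 11349545 to 23910417. A count of 3 corresponded to 0.116 to 0.264 CPM (counts set relative to each library's scaled total) over the 8 U2OS libraries, which was taken as the floor of detection, for counting error only. The replicates of each group were distinct libraries: their chi-square per gene was 22.4 for control siRNA and 13.8 for control plasmid, well above the sampling noise. Log CPM correlated across genes at 0.987 and 0.986 within the 2 control groups, and at 0.966 to 0.975 between them. The SAM68 replicates were less alike, at 0.965 with siRNA and 0.979 with plasmid, with a chi-square per gene of 60.1 and 47.1. The SAM68 siRNA replicates thus correlated no better than libraries of the 2 control states. On the first principal component of the 8 libraries, which held 50.5% of the variance, the 4 siRNA libraries lay at 26.5 to 45.1 and the 4 plasmid libraries at −58.3 to −26.8. The second component held 19.2%.

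**Figure D1:**
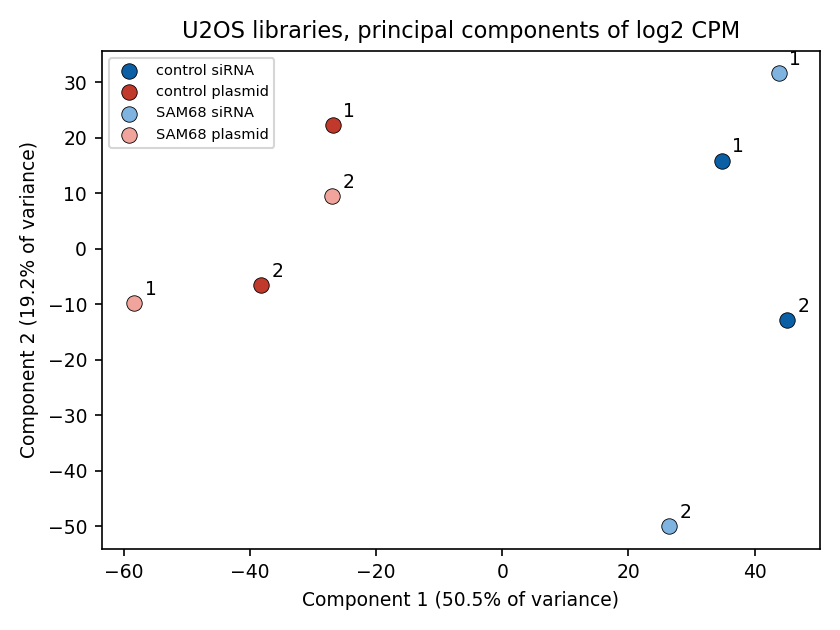
Principal components of log2 CPM over the 8 U2OS libraries, with the first component (50.5% of the variance) on the x axis and the second (19.2%) on the y axis, 1 point per library and 1 marker per group. The siRNA libraries lie on the right and the plasmid libraries on the left, whether or not SAM68 was targeted.

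The genes named in the series came first. KHDRBS1 stood at 245 and 249 CPM with control siRNA and at 220 and 277 CPM with control plasmid, so the groups overlapped, and its log2 fold change (siRNA over plasmid) was −0.01 (adjusted p = 0.985). The long noncoding RNA NORAD, which sequesters Pumilio proteins, was at 446 and 442 CPM against 310 and 254 CPM. Its log2 fold change was 0.66 ± 0.23 (SE, adjusted p = 0.144). PUM2, one of the Pumilio repressors, was at 212 and 196 CPM against 153 and 125 CPM, with a log2 fold change of 0.56 ± 0.27 (adjusted p = 0.257). For NORAD and PUM2 both siRNA libraries lay above both plasmid libraries, as in 39.4% of all tested genes, but neither passed the test over the 8 libraries. With only the 4 control libraries in the fit both were called higher with siRNA, NORAD with a log2 fold change of 0.58 (adjusted p = 0.0189) and PUM2 with 0.49 (adjusted p = 0.0422).

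In the comparison of the control states, 204 of 15658 tested genes (1.3%) passed an adjusted p of 0.05 by edgeR's quasi-likelihood test: 162 (1.03%) were higher with control siRNA and 42 (0.268%) were higher with control plasmid. The differences were large. Of the called genes, 196 differed at least 2-fold and 71 at least 4-fold, 60 of these higher with siRNA and 11 higher with plasmid. A level under 5 CPM in the higher group applied to 22 of them, and 6 were rows of several genes or copies. The 2 siRNA libraries lay entirely above or below the 2 plasmid libraries for 66% of all tested genes (39.4% higher and 26.6% lower). Lack of overlap was thus common, and the naming rule for the largest differences required it, so it adds no support to a single gene. An unadjusted p below 0.05 was reached by 3565 genes (22.8%), far more than were called. Over all tested genes, 9090 had a log2 fold change above 0 and 6564 below it, with a median of 0.11. The count of calls rests on few libraries and on the spread they share. Leaving out control siRNA replicate 1 left 54 calls, and leaving out replicate 2 left 1. Without control plasmid replicate 1 it was 3 and without replicate 2 it was 4. The SAM68 libraries enter through the shared spread: 67 and 78 genes were called when SAM68 plasmid replicate 1 or 2 was dropped, and 1472 and 1477 when SAM68 siRNA replicate 1 or 2 was dropped. With only the 4 control libraries in the fit, 3386 of 15258 genes (22.2%) were called. The balance of directions moved with the scaling and the tool. It was 125 higher and 59 lower with size factors by the RLE method, 558 and 462 by DESeq2, 878 and 811 with an offset for GC content, and 1801 (11.8%) and 1585 (10.4%) in the fit of the 4 controls. The GC offset moved the median of all genes to 0.00. None of the 204 changed direction under any setting in which it was tested. Those settings refit the libraries by which the 204 were called, so nothing is read from this. With only 2 libraries per group, an exact two-sided permutation test of 1 gene cannot go below p = 0.333.

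The genes with the largest differences towards siRNA were a mixture of secreted proteins, receptors and regulators of growth and death. GUCY1A2, a subunit of the nitric oxide receptor guanylate cyclase, stood at 55.3 and 53.4 CPM with control siRNA and at 8.44 and 6.44 CPM with control plasmid. The siRNA libraries were almost equal and far above both plasmid libraries, a 7.34-fold difference (log2 2.87 ± 0.21, adjusted p = 0.00327), and it was the one gene called under all 18 alternative settings. MIAT, a long noncoding RNA, was at 44.7 and 68.2 CPM against 6.38 and 4.65 CPM (log2 3.37 ± 0.32, adjusted p = 0.00943). The dopamine receptor gene DRD1 was at 11.5 and 20 CPM against 1.35 and 1.29 CPM (log2 3.58 ± 0.40, adjusted p = 0.0129). In both, the second siRNA library was the higher one, and neither siRNA library came near the plasmid libraries. HMCN1, an extracellular matrix protein, was at 28 and 43.1 CPM against 4.61 and 3.5 CPM (log2 3.14 ± 0.38). LDLRAD4, which restrains TGF-β signalling, was at 21.5 and 39.7 CPM against 3.69 and 3.36 CPM (log2 3.12 ± 0.40). The chemokine gene CXCL14 was at 46.2 and 105 CPM against 11.3 and 7.36 CPM (log2 3.03 ± 0.49, adjusted p = 0.03). Its siRNA libraries differed more from each other than those of the other genes named here. IGFBP5, which binds insulin-like growth factors, was at 171 and 307 CPM against 35.9 and 37.6 CPM (log2 2.70 ± 0.36, adjusted p = 0.0129). KRT14, a basal keratin, stood at 4.58 and 6.75 CPM against 0.354 and 0.874 CPM, so both groups were low. The ring-finger protein gene RNF150 (log2 2.65) was among the 15 largest differences too. So were POTEE and POTEF (log2 3.29 and 2.52), whose near-identical copies can share reads and are therefore uncertain.

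Several targets of FOXO transcription factors, which are active when growth-factor signalling is low, were higher with control siRNA. Of 21 listed FOXO targets, 19 were tested, 7 were called higher and none lower (1.03% and 0.268% of all genes), 17 had a log2 fold change above 0, and the median was 0.75 against 0.11 for all genes. The list was chosen after the values were seen, so its count is a description. SESN3, a sestrin that restrains mTORC1, was at 89.2 and 87 CPM with siRNA and at 17.4 and 14 CPM with plasmid. That was a 5.63-fold difference (log2 2.49 ± 0.23, adjusted p = 0.00943) between tight pairs. BMF, a pro-apoptotic BH3-only protein, was at 24.8 and 34.9 CPM against 4.47 and 2.76 CPM (log2 3.07 ± 0.38, adjusted p = 0.0129). Its relative BCL2L11, which encodes BIM, was at 40.2 and 43 CPM against 21.6 and 21.6 CPM (log2 0.95, adjusted p = 0.0492). The groups did not overlap in either BH3-only gene, as in 66% of all tested genes, and the rule that named BMF required it. The difference was larger for BMF. CCNG2, an atypical cyclin that goes with cell-cycle arrest, was at 56.1 and 53.7 CPM against 16.9 and 15.5 CPM (log2 1.76 ± 0.23, adjusted p = 0.0129). TP53INP1, a stress protein also induced by p53, was at 33.3 and 34.7 CPM against 9.64 and 8.47 CPM (log2 1.91 ± 0.28, adjusted p = 0.0206). The replicates of both genes were close to each other in each group. KLHL24 was at 28.8 and 26.3 CPM against 10.5 and 7.82 CPM (log2 1.60, adjusted p = 0.0253). PDK4, which shuts pyruvate out of the mitochondrial oxidation, was low in all 4 libraries, at 2.32 and 2.74 CPM against 0.567 and 0.598 CPM (adjusted p = 0.0332). TXNIP, another FOXO-responsive gene, had a log2 fold change of −0.70 and did not pass the test (adjusted p = 0.134).

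Genes that respond to or restrain Wnt signalling formed a further group with more transcript under control siRNA. In a list of 20 such genes, also chosen after the values were seen, 14 were tested, and the median log2 fold change was 1.33. By edgeR and by DESeq2, 6 were called higher and none lower. Over all genes edgeR called 1.03% higher and DESeq2 558 of 15658. AXIN2, a scaffold of the β-catenin destruction complex and a feedback target of the pathway, was at 28.5 and 30.3 CPM with siRNA and at 9.71 and 10.2 CPM with plasmid (log2 1.56 ± 0.23, adjusted p = 0.0211). RNF43, a ubiquitin ligase that removes Wnt receptors, was at 22.1 and 25.2 CPM against 5.39 and 5.11 CPM (log2 2.17 ± 0.24, adjusted p = 0.0129). For these feedback genes, the 2 libraries of each group were nearly equal. NKD1, an inhibitor acting on Dishevelled, was at 9.97 and 15.8 CPM against 3.05 and 4.65 CPM (log2 1.73 ± 0.34, adjusted p = 0.0473). LGR4, an R-spondin receptor, was at 22.4 and 25.7 CPM against 8.29 and 6.76 CPM (log2 1.68 ± 0.32, adjusted p = 0.0448). The other called members were LBH, at 45.1 and 89.9 CPM against 10.5 and 9.89 CPM, and MMP7, which stayed under 3 CPM in all 4 libraries. Members that did not pass included CCND1 (log2 −0.19), LEF1 (0.30) and ZNRF3 (0.02), the partner of RNF43, so the group was not uniform. The receptors FZD4 (log2 0.96 ± 0.19, adjusted p = 0.0473) and ROR1 (1.94 ± 0.26, adjusted p = 0.0129) stood outside the list and were called higher with siRNA. They were picked from the called genes after the values were seen, so they add no support to the list.

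**Figure D2:**
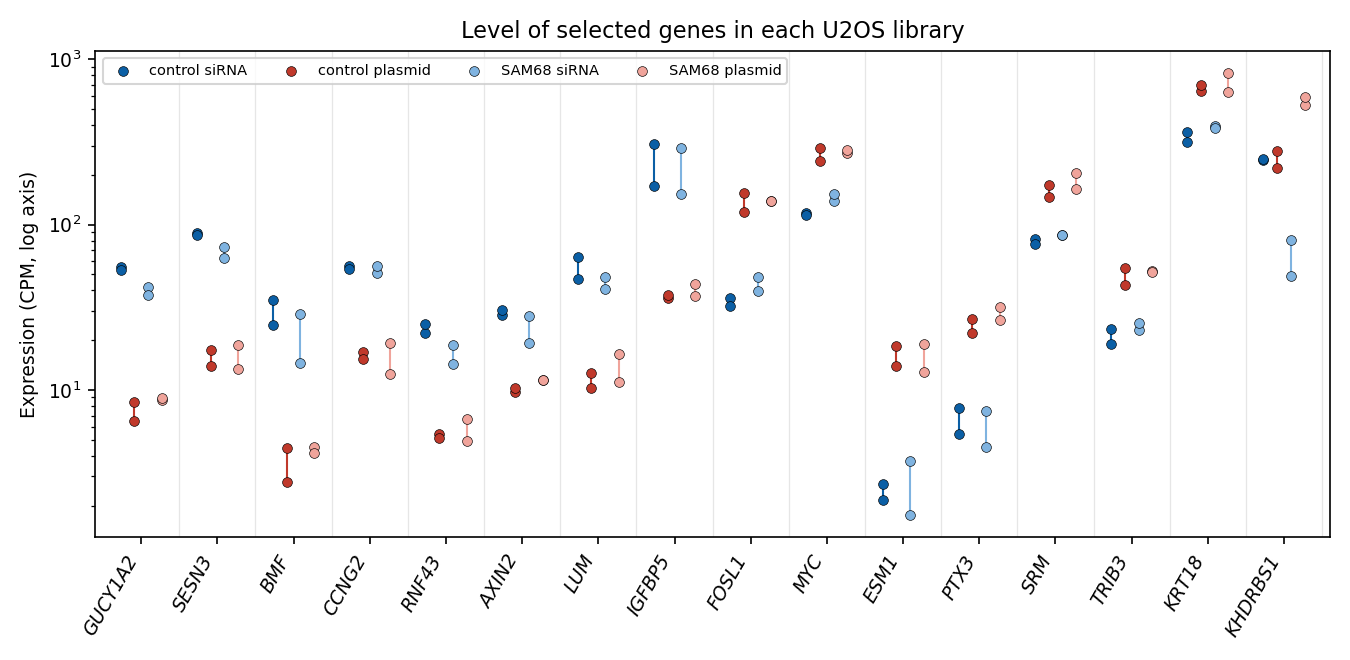
CPM (y axis, log scale) of 16 genes (x axis) in each of the 8 U2OS libraries, 1 point per library, marked as control siRNA, control plasmid, SAM68 siRNA or SAM68 plasmid. For GUCY1A2, SESN3, BMF, CCNG2, RNF43, AXIN2, LUM and IGFBP5 both control siRNA points lie above both control plasmid points, for FOSL1, MYC, ESM1, PTX3, SRM, TRIB3 and KRT18 they lie below, and KHDRBS1 overlaps between the controls.

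Matrix genes of mesenchymal cells tended to be higher with control siRNA, but with large differences between replicates. Of 30 listed extracellular matrix genes, 27 were tested and 21 were above 0. The fit of 8 libraries called 2 higher and none lower, against 1.03% and 0.268% of all genes. DESeq2 called 6 higher and 2 lower, against 558 and 462 of all 15658 genes. The fit of the 4 controls, which called 22.2% of all genes, called 12 higher and 3 lower. The median log2 fold change was 0.62, and without control siRNA replicate 2 it was 0.13. LUM, a collagen-binding proteoglycan, was at 46.7 and 63.3 CPM with siRNA and at 12.6 and 10.3 CPM with plasmid (log2 2.27 ± 0.27, adjusted p = 0.0129). FBN1, the main protein of microfibrils, was at 37.3 and 58.3 CPM against 10.9 and 12.1 CPM (log2 2.05 ± 0.40, adjusted p = 0.0466). The groups did not overlap in either gene, as in 66% of all tested genes. The collagen gene COL3A1 was at 28.6 and 86.2 CPM against 5.25 and 4.33 CPM, and did not pass (log2 3.59 ± 0.81, adjusted p = 0.063), with a 3-fold gap between its siRNA libraries. COL1A1 was at 796 and 1710 CPM against 513 and 721 CPM (log2 1.02, adjusted p = 0.214). The stromelysin gene MMP3 ran the other way, at 277 and 93 CPM against 714 and 886 CPM, and was not called (log2 −2.11 ± 0.55, adjusted p = 0.0821). In all 3, siRNA replicate 2 lay farther from the plasmid libraries than replicate 1. The clustered β-protocadherins are neuronal adhesion genes that sit side by side in the genome and have similar sequences. In this list, chosen after the values were seen, 14 of 14 tested genes were above 0. Their median was 1.30, and 0.83 without control siRNA replicate 2. By edgeR 2 were called higher, against 1.03% of all genes. PCDHB11 was at 6.95 and 10.8 CPM against 1.7 and 1.98 CPM (log2 2.26 ± 0.31, adjusted p = 0.015), and PCDHB13 had a log2 fold change of 1.58 (adjusted p = 0.0386).

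Among 17 genes of the circadian clock, in a list chosen after the values were seen, 2 were called higher with siRNA and 14 were above 0. The median was 0.58, or 0.27 without control siRNA replicate 2. Of all 15658 tested genes, 1.03% were called higher and 9090 were above 0, with a median of 0.11. PER3, a repressor of the clock's transcription loop, was at 64.4 and 85.6 CPM with siRNA and at 33.3 and 30.2 CPM with plasmid (log2 1.24 ± 0.21, adjusted p = 0.0332). BHLHE41, which represses the CLOCK complex, was at 50.9 and 72.4 CPM against 14.2 and 14.3 CPM (log2 2.11 ± 0.27, adjusted p = 0.0129). NPAS2, a relative of CLOCK, had a log2 fold change of −0.78 and was not called (adjusted p = 0.0912).

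Genes higher with control plasmid were fewer, and several encode growth-associated regulators. FOSL1, a subunit of the AP-1 transcription factor that accumulates under sustained ERK signalling, was at 120 and 155 CPM with control plasmid and at 36 and 32.4 CPM with control siRNA. The plasmid libraries were 4.03-fold higher (log2 −2.01 ± 0.20, adjusted p = 0.0107), and the call held in 16 of 18 alternative settings. MYC, a regulator of growth and ribosome production, was at 243 and 291 CPM with plasmid and at 117 and 114 CPM with siRNA, a 2.31-fold difference (log2 −1.21 ± 0.17, adjusted p = 0.0172). Its siRNA libraries were almost equal and far below the plasmid libraries. Per transcript length, in the TPM values deposited by the authors, FOSL1 averaged 171 with plasmid and 48.6 with siRNA, and MYC 204 and 102.

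Several of the largest differences towards the plasmid were in genes of low level and of varied kinds. ESM1, a secreted proteoglycan, was at 14 and 18.3 CPM with plasmid and at 2.69 and 2.16 CPM with siRNA (log2 −2.74 ± 0.36, adjusted p = 0.0129). G0S2, an inhibitor of fat breakdown, was at 7.59 and 10.4 CPM against 2.03 and 0.695 CPM (log2 −2.75 ± 0.42, adjusted p = 0.0232). The cytokine gene IL24 was at 6.81 and 8.51 CPM against 1.94 and 0.965 CPM (log2 −2.42 ± 0.36, adjusted p = 0.0217). All 3 were below 3 CPM with siRNA, where few counts carry the value. PTX3, a soluble pattern-recognition protein, was at 22 and 26.8 CPM with plasmid against 7.8 and 5.44 CPM with siRNA (log2 −1.89 ± 0.29, adjusted p = 0.0232). The inflammasome sensor gene NLRP3 was at 15.6 and 17.4 CPM against 6.33 and 4.48 CPM (log2 −1.61). Neither gene overlapped between the groups, which the naming rule required. KRTAP2-3 (log2 −2.27), ROBO4 (−1.95), PHLDA2 (−1.71), KRT34 (−1.49), SLCO4A1 (−1.40), FOXD1 (−1.38) and RAC2 (−1.34) completed the largest called differences in this direction, together with RPL13AP20, a ribosomal protein pseudogene whose reads cannot be told apart from those of near-identical copies.

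Beside FOSL1, other genes of ERK output were called. Of 18 genes in a list chosen after the values were seen, 16 were tested, and the median log2 fold change was −0.61. A total of 4 were called lower with siRNA and 1 higher (0.268% and 1.03% of all genes). PLAUR, the urokinase receptor, was at 88.5 and 110 CPM with plasmid and at 52.7 and 50.7 CPM with siRNA (log2 −0.94 ± 0.18, adjusted p = 0.0466). SPHK1, which makes sphingosine 1-phosphate, was at 25.5 and 28.9 CPM against 12.7 and 9.84 CPM (log2 −1.28 ± 0.24, adjusted p = 0.0429). The chromatin protein gene HMGA1 was abundant, at 1956 and 2370 CPM against 1104 and 1042 CPM (log2 −1.01 ± 0.19, adjusted p = 0.0433). PHLDA1 went the other way, at 14.2 and 14 CPM with plasmid and 35.6 and 33.3 CPM with siRNA (log2 1.29 ± 0.20, adjusted p = 0.0265). The direct feedback genes DUSP6 (log2 0.29), SPRY2 (−0.45) and ETV4 (−0.87, adjusted p = 0.0588) were not called, so members of the same list differed in direction.

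Genes for ribosome production and polyamines, textbook targets of MYC, lay mostly lower with siRNA. Of 24 genes in a list chosen after the values were seen, 23 were tested, 21 were below 0, and the median was −0.61. The fit of 8 libraries called 3 lower and none higher, DESeq2 called 12 lower, and the fit of the 4 controls 19 lower. Over all genes the shares called lower were 0.268% by edgeR, 462 of 15658 by DESeq2 and 10.4% in the fit of the 4 controls. RRS1, a ribosome assembly factor, was at 72.4 and 88.3 CPM with plasmid and at 39.3 and 36 CPM with siRNA (log2 −1.09 ± 0.18, adjusted p = 0.0332). SRM, spermidine synthase, was at 146 and 174 CPM against 82.3 and 76 CPM (log2 −1.01 ± 0.19, adjusted p = 0.0386). CCDC86, a nucleolar protein, was at 120 and 141 CPM against 56.9 and 44.7 CPM (log2 −1.37 ± 0.21, adjusted p = 0.0232). In each, both plasmid libraries lay above both siRNA libraries, as in 26.6% of all tested genes. ODC1, which catalyses the first step of polyamine synthesis, was at 834 and 959 CPM against 602 and 570 CPM and was not called in the fit of 8 libraries (log2 −0.61, adjusted p = 0.0844), nor were the nucleolar genes NCL (−0.48) and NPM1 (−0.45).

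Because AP-1 and MYC each bind a short DNA element, promoters of genes higher with plasmid were searched for these elements in RefSeq sequence of GRCh38.p14, from 250 bases before to 50 after the start of each gene. The table matched 11800 of the tested genes by symbol, including 28 of the 42 genes higher with plasmid and 124 of the 162 higher with siRNA. The AP-1 element TGANTCA, on either strand, was found in 5 of the 28 (17.9%), in 10 of the 124 (8.06%) and in 585 of all 11800 (4.96%). The 5 were MAP2K3, MYOZ2, OSGIN1, PLAUR and SPHK1. The E-box CACGTG was found in 2 of the 28 (7.14%), CCDC86 and SRM, in 8 of the 124 (6.45%) and in 1159 of all (9.82%), so it was not more frequent among the genes higher with plasmid. The FOXO element GTAAACA, on either strand, was in 0 of the 28, 6 of the 124 (4.84%) and 272 of all (2.31%), and the TCF/LEF element CTTTGAT in 0, 1 (0.806%) and 174 (1.47%). No test was made of these shares, and a match is a description, not a binding site. The promoters of the 2 called ERK-output genes and the 2 called growth genes that hold a match follow, read 5′ to 3′ on the gene's strand with the match in capitals: PLAUR at chr19:43670120-43670419 (minus strand), SPHK1 at chr17:76382954-76383253 (plus), SRM at chr1:11059969-11060268 (minus) and CCDC86 at chr11:60841863-60842162 (plus).
PLAUR: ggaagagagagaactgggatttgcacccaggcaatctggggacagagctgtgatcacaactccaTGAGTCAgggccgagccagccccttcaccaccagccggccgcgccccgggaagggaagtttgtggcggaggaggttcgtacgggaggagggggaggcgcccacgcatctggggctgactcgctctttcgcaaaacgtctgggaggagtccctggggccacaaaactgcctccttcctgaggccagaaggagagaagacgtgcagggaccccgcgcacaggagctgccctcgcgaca
SPHK1: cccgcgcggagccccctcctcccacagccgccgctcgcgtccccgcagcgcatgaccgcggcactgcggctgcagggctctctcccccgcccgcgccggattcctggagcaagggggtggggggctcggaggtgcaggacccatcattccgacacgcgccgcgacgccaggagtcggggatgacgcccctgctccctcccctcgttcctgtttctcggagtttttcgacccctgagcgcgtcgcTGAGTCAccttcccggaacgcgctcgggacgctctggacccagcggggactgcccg
SRM: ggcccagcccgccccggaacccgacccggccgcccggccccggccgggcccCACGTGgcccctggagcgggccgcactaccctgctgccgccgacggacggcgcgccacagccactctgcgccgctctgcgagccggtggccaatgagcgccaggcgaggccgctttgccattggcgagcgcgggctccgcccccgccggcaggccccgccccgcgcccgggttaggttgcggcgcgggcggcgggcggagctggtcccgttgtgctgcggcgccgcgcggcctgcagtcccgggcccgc
CCDC86: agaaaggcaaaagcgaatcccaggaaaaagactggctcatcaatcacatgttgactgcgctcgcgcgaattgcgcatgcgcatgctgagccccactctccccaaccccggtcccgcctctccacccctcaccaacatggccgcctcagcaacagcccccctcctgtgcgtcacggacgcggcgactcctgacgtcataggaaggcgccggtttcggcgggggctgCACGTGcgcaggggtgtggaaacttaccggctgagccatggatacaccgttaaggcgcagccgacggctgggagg
The AP-1 match of PLAUR begins 186 bases before the start of the gene, and that of SPHK1 begins 6 bases before it. The E-box begins 199 bases before the start in SRM and 25 in CCDC86.

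Since RNA and DNA are sensed by different proteins, the genes of nucleic acid sensing and of the interferon response were examined in full. Of 44 interferon-stimulated genes listed, 35 were tested, 2 were called higher with siRNA and none lower, and 27 were above 0. DESeq2 called 5 higher, and the fit of the 4 controls 10 higher and 1 lower. Over all genes edgeR called 1.03% higher, DESeq2 558 of 15658, and the fit of the 4 controls 11.8% higher and 10.4% lower. The median log2 fold change was 0.60 against 0.11 for all genes, and 0.40 without control siRNA replicate 2. An unadjusted p below 0.05 was reached by 15, each higher with siRNA, against 22.8% of all genes in either direction. PARP9 was at 29.7 and 33.9 CPM with siRNA and at 15.9 and 15.7 CPM with plasmid (log2 1.01 ± 0.19, adjusted p = 0.0439). TRIM22, an antiviral restriction factor, was at 25.2 and 30.2 CPM against 11.6 and 12.4 CPM (log2 1.21 ± 0.23, adjusted p = 0.0456). In both genes the groups were well separated, each about 2-fold apart. IFIT1, among the most inducible genes of the response, was at 22.5 and 19.8 CPM against 11.1 and 8.51 CPM and did not pass (log2 1.11, adjusted p = 0.0614). ISG15, also highly inducible, was at 2.6 and 1.97 CPM against 1.91 and 3.18 CPM, overlapping between the groups (log2 −0.18). MX1 (log2 0.49) was close to 1 CPM, and IFIT2 and IFIT3 had log2 fold changes of 0.21 each. The interferon genes IFNB1 and IFNL1 were at 0 in all 8 U2OS libraries.

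None of the sensors and adaptors passed the test over the 8 libraries. Of 20 listed genes, 16 were tested, and 0 were called by edgeR or by DESeq2, with an unadjusted p below 0.05 by edgeR in 3 genes higher and 1 lower. The fit of the 4 controls called 1 lower. The median was 0.17, and it changed sign over the settings (−0.01 to 0.17). CGAS, the DNA sensor, was at 7.18 and 5.79 CPM with siRNA and at 9 and 7.32 CPM with plasmid (log2 −0.33). Its adaptor STING1 had a log2 fold change of −0.44. On the RNA side, RIGI (−0.09), IFIH1, which encodes MDA5 (0.70, adjusted p = 0.228), and EIF2AK2, which encodes PKR (0.33), were not called either. MAVS, the adaptor of both RNA sensors, was at 123 and 138 CPM against 93.2 and 95.3 CPM (log2 0.47, adjusted p = 0.143), with no overlap but no call. ADAR (0.45) and TICAM1 (−0.70) completed the better expressed members. TLR3 (1.35) was low. Of 14 interferon ligands, receptors and kinases listed, 11 were tested and all 11 were above 0 with a median of 0.39 (0.19 without control siRNA replicate 2). In the fit of 8 libraries 0 were called by edgeR, as by DESeq2, while 3 had an unadjusted p below 0.05, and the fit of the 4 controls called 2 higher. The 15 genes of MHC class I presentation had a median of 0.18, which turned to −0.03 without control siRNA replicate 2 and was 0.28 without control plasmid replicate 2. There were 0 calls by edgeR over the 8 libraries, with 2 higher and 2 lower at an unadjusted p below 0.05 and 1 lower call by DESeq2, and the fit of the 4 controls called 1 higher and 2 lower. For the 27 NF-κB and inflammatory genes, 21 tested, the median was −0.32, and it was −0.58 without control siRNA replicate 2 and −0.05 without control plasmid replicate 2. The fit of 8 libraries by edgeR gave 0 calls and 5 lower at an unadjusted p below 0.05. DESeq2 gave 0 calls, and edgeR on the 4 controls called 1 higher and 6 lower. Beside these lists, 22.8% of all genes had an unadjusted p below 0.05, and the fit of the 4 controls called 22.2%.

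Of the RNA interference machinery, 1 of 13 genes was called, while DESeq2 called 3 higher and the fit of the 4 controls 4 higher. Over all genes edgeR called 1.03% higher, DESeq2 558 of 15658 and the fit of the 4 controls 11.8%. AGO4, an Argonaute without slicer activity, was at 15.7 and 17.4 CPM with siRNA and at 7.23 and 7.22 CPM with plasmid (log2 1.19 ± 0.23, adjusted p = 0.0473). AGO2, the slicing Argonaute used by siRNAs, was at 118 and 133 CPM against 127 and 156 CPM, overlapping between the groups (log2 −0.18). DICER1 (0.62), TNRC6B (0.75, adjusted p = 0.0844) and TNRC6C, at 18.5 and 23.3 CPM against 10.6 and 10.4 CPM (0.99, adjusted p = 0.0592), did not pass in the fit of 8 libraries. The median over the list was 0.21 and crossed 0 over the settings (−0.01 to 0.24).

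Stress genes leaned towards the plasmid. Of 23 genes of the integrated stress response, which slows translation and raises ATF4, 1 was called lower with siRNA and none higher, 20 were below 0, and the median was −0.50 (−0.64 to −0.38 over the settings). DESeq2 called 5 lower and the fit of the 4 controls 11. Over all genes edgeR called 0.268% lower and 1.03% higher, DESeq2 462 of 15658 lower and the fit of the 4 controls 10.4% lower. TRIB3, a pseudokinase induced by ATF4, was at 43.3 and 54.7 CPM with plasmid and at 23.5 and 19 CPM with siRNA (log2 −1.21 ± 0.21, adjusted p = 0.0332). ATF4 itself was at 674 and 737 CPM against 465 and 498 CPM without a call (log2 −0.55, adjusted p = 0.143), and CHAC1 (−1.13, adjusted p = 0.0511) and DDIT3 (−0.66) did not pass. The 13 tested heat shock genes had a median of −0.36 and 0 calls by edgeR, with 5 lower at an unadjusted p below 0.05 and 4 lower by DESeq2. Among them HSPA1A, the inducible HSP70, was at 181 and 259 CPM with plasmid and at 124 and 125 CPM with siRNA (log2 −0.82, adjusted p = 0.0782). In the oxidative and metal stress list, OSGIN1 was the 1 called gene of 14 tested, at 34.4 and 47.2 CPM against 19.3 and 15.3 CPM (log2 −1.24, adjusted p = 0.0363). In the hypoxia and glycolysis list, it was HK2, hexokinase 2, 1 of 25 tested, at 91.7 and 106 CPM against 51 and 42.6 CPM (log2 −1.08, adjusted p = 0.0439). The immediate early list, 27 tested, had 2 called lower, FOSL1 and MYC, both described above. Of all tested genes, edgeR called 1.3%, and 0.268% as lower. The median of the immediate early list was −0.30, which was −0.57 without control siRNA replicate 2 and −0.16 without control plasmid replicate 2. In this list 10 genes were above 0 and 17 below. DESeq2 called 1 higher and 5 lower, against 558 and 462 of all 15658 genes. Between the SAM68 libraries its median was −0.06.

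The p53 targets went both ways, with a median of 0.30 that was 0.08 without control siRNA replicate 2. Of 25 tested, edgeR called 1 higher (TP53INP1) and 1 lower, against 1.03% and 0.268% of all genes. The lower one, GADD45A, a DNA-damage response gene, was at 60.5 and 76.1 CPM with plasmid and at 32 and 31.6 CPM with siRNA (log2 −1.10, adjusted p = 0.0332). CDKN1A (log2 0.11) and MDM2 (0.61), the best known targets of p53, were not called. Cholesterol synthesis genes were above 0 in 18 of 19 tested, with a median of 0.40 (0.25 without control siRNA replicate 2), and 0 were called by edgeR over the 8 libraries. A total of 7 had an unadjusted p below 0.05, DESeq2 called 2 and the fit of the 4 controls 6, each higher with siRNA. Over all 15658 genes, 2274 were higher at an unadjusted p below 0.05 and 558 were called higher by DESeq2. The fit of the 4 controls called 11.8% of all genes higher. STARD4, a sterol carrier, was at 62 and 58.3 CPM with siRNA and at 27.4 and 24.5 CPM with plasmid (log2 1.21, adjusted p = 0.062). Its pairs were tight and did not overlap, as in 66% of all tested genes, but it was not called by edgeR. Lysosome genes (median 0.00 over 21, both directions over the settings), chaperones of the endoplasmic reticulum (0.06 over 18, likewise), mitosis genes (0.20 over 42) and replication genes (−0.05 over 40) had 0 calls by edgeR over the 8 libraries. At an unadjusted p below 0.05 these 4 lists had 3 higher and 3 lower, 1 and 1, 2 and 2, and 1 and 2 genes, and DESeq2 called 1 chaperone and 1 replication gene lower and none in the other lists.

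**Figure D3:**
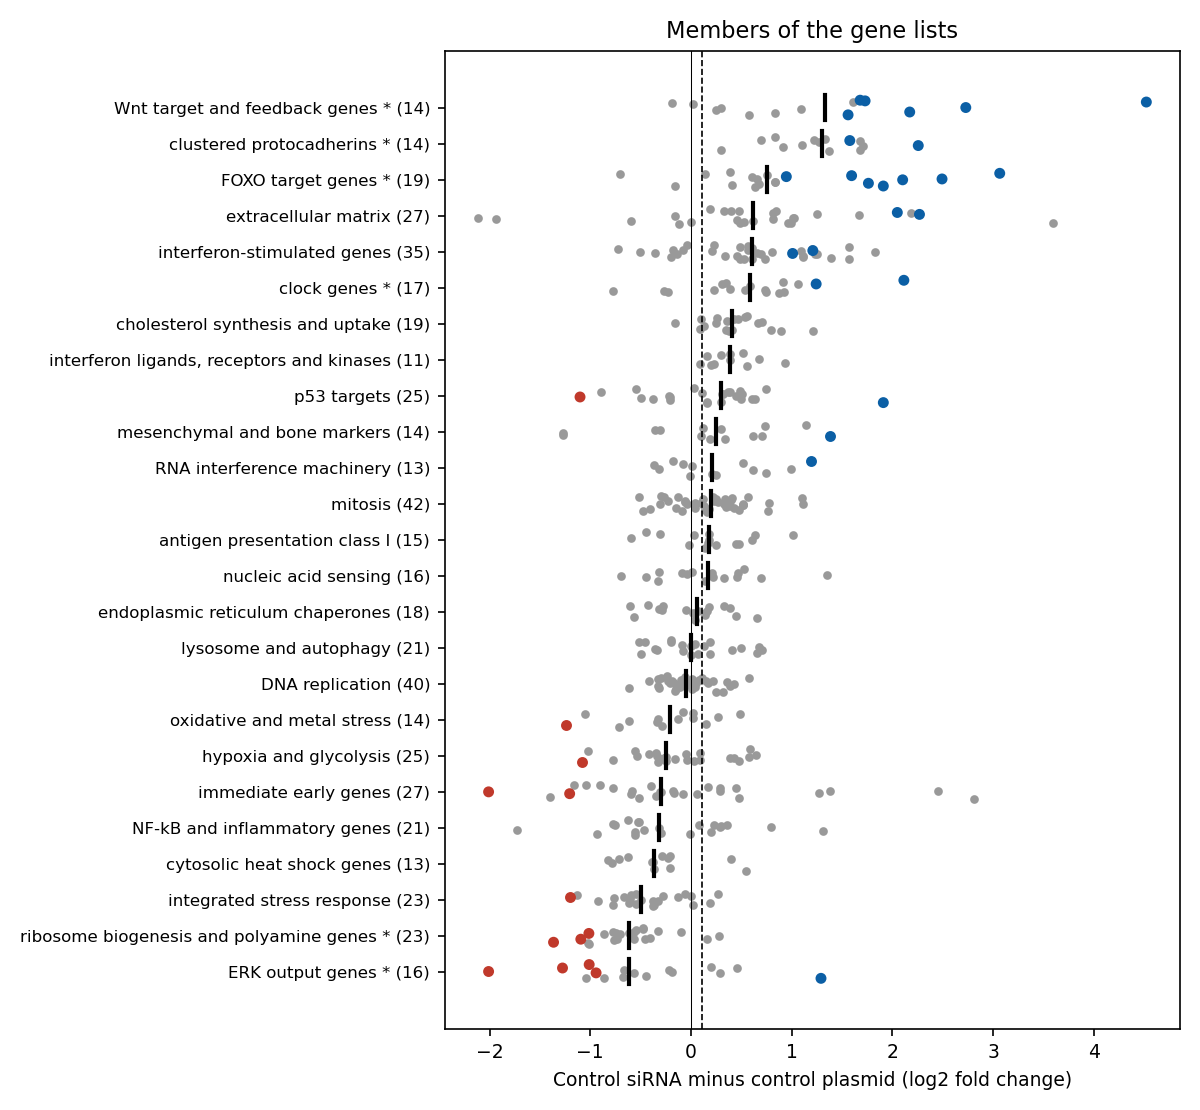
Log2 fold change (control siRNA over control plasmid, x axis) of every tested member of each gene list with at least 10 tested members, 1 row per list with the number of tested members in brackets. A black bar marks the list's median, the dashed line the median of all tested genes (0.11), blue and red points are called higher and lower with siRNA, and an asterisk marks a list chosen after the values were seen. The Wnt, protocadherin and FOXO lists lie farthest to the right and the ribosome, ERK and stress response lists farthest to the left.

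Markers of the cell line and of other cell types were checked in both states. Over all tested genes edgeR called 1.03% higher and 0.268% lower with siRNA. Of 19 mesenchymal and bone markers, 14 were tested and 1 was called: RUNX2, the master regulator of bone formation, was at 42.7 and 59.5 CPM with siRNA and at 22.8 and 16.5 CPM with plasmid (log2 1.38 ± 0.27, adjusted p = 0.0468). Vimentin (VIM) was at 2759 and 2469 CPM against 3050 and 3628 CPM, while the bone genes IBSP and SP7 and the mesenchymal factor TWIST1 were at or near 0, so the label of a bone tumour line rests on the other markers. Of 19 epithelial markers, 6 were tested and 1 was called. KRT18, a keratin of simple epithelia that many tumour lines express, was at 638 and 693 CPM with plasmid against 365 and 317 CPM with siRNA (log2 −0.97 ± 0.18, adjusted p = 0.0448), and EPCAM was at 5.29 and 6.33 CPM with siRNA against 4.32 and 4.56 CPM with plasmid. Of 13 blood and endothelial markers, 4 were tested and 0 were called by edgeR, with 2 higher at an unadjusted p below 0.05 and 1 called by DESeq2. CD3E, HBB, HBA1 and HBA2 were at 0, PTPRC stayed under 1 CPM, and VWF was at 2.32 and 3.36 CPM with siRNA against 0.284 and 0.736 CPM with plasmid (adjusted p = 0.0778). In such bulk libraries, fewer cells of a kind and less RNA per cell cannot be told apart.

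The 4 SAM68 libraries give the same 2 delivery modes without sharing a library with the controls, although SAM68 was lowered in the siRNA group and raised in the plasmid group. KHDRBS1 was at 80.7 and 48.6 CPM with SAM68 siRNA and at 531 and 593 CPM with SAM68 plasmid (log2 −3.12). The plasmid carries the mouse gene while the genome build was human, so its level may mix reads of both. In this comparison 559 genes (3.57%) were called, 350 higher with siRNA (2.24%) and 209 lower (1.33%), and 27.4% had an unadjusted p below 0.05. Dropping SAM68 siRNA replicate 1 or 2 made the count 1280 or 1364, and dropping SAM68 plasmid replicate 1 or 2 made it 2 or 1122. All 204 genes called between the controls had the same direction there, as did 83.6% of all tested genes. A total of 161 were called in both comparisons, 78.9% of the 204 and 28.8% of the 559. Both comparisons come from 1 fit and share each gene's estimate of spread, so this overlap of calls is not independent. The median absolute log2 fold change of the 204 was 1.72 between the controls and 1.46 between the SAM68 libraries. Across all genes, which are not independent replicates, the 2 sets of log2 fold changes correlated with a Pearson coefficient of 0.673 and a Spearman coefficient of 0.817. If the siRNA and plasmid experiments were done in 2 batches, these libraries would share the batches, so this comparison does not separate batch from delivery mode.

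The levels of single genes can be set side by side. FOSL1 was at 139 and 139 CPM with SAM68 plasmid and at 48.2 and 39.8 CPM with SAM68 siRNA (log2 −1.66), against −2.01 between the controls. GUCY1A2 had a log2 fold change of 2.17 against 2.87. The 4 siRNA libraries did not overlap the 4 plasmid libraries for 202 of the 204 genes (34.1% of all genes), a count that includes the control libraries by which the 204 were called, so nothing is read from it. With the 4 siRNA libraries set against the 4 plasmid libraries, 3890 genes (24.8%) were called, 2308 higher with siRNA (14.7%) and 1582 lower (10.1%), and 40.9% had an unadjusted p below 0.05. This fit contains the control libraries. Its count fell to 2096 or 842 when control siRNA replicate 1 or 2 was dropped, to 1685 or 783 when control plasmid replicate 1 or 2 was, and to 1382 when SAM68 plasmid replicate 1 was. The gene lists described above had medians between the SAM68 libraries of 0.55 for interferon-stimulated genes, 0.79 for FOXO targets, 0.78 for Wnt genes, 0.79 for matrix genes, 1.39 for protocadherins, −0.65 for ribosome genes and −0.44 for ERK output. Medians of opposite sign in the SAM68 libraries and the controls were found for p53 targets (−0.09 and 0.30), mitosis (−0.06 and 0.20), class I presentation (−0.01 and 0.18), chaperones of the endoplasmic reticulum (−0.09 and 0.06) and epithelial markers (0.03 and −0.06). The difference of these medians was not tested.

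**Figure D4:**
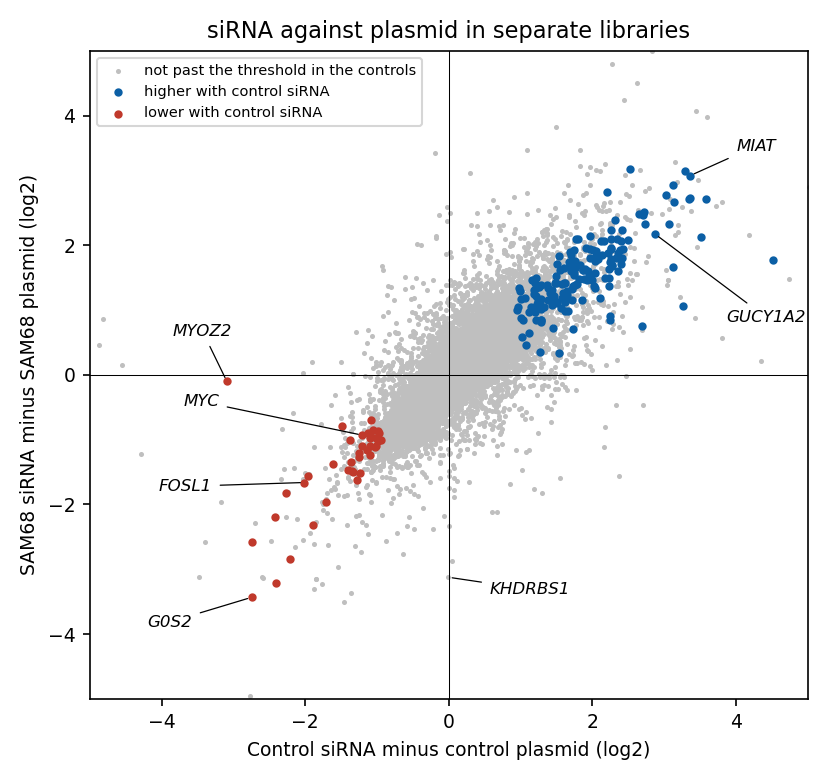
Log2 fold change of siRNA over plasmid for each tested gene, between the control libraries (x axis) and between the SAM68 libraries (y axis), with the 204 genes called between the controls in colour and some named. All 204 lie in the quadrants of equal sign, KHDRBS1 lies near 0 on x and at −3.12 on y, and 46 genes lie outside the drawn range.

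The difference between the 2 comparisons was tested in the same fit. By edgeR 0 of 15658 genes were called, 130 (0.83%) had an unadjusted p below 0.05, and DESeq2 called 1. A difference that was not called does not show that the comparisons are alike. MYOZ2, a muscle protein named after its values were seen, was at 1.42 and 1.24 CPM with control plasmid and at 0.189 and 0.116 CPM with control siRNA (log2 −3.09, adjusted p = 0.0332), and had a log2 fold change of −0.10 between the SAM68 libraries. The difference of 2.99 ± 0.73 was not called (adjusted p = 1 by edgeR's quasi-likelihood test), and both control siRNA values lie close to the floor of 3 counts.

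Transcript length and GC content moved with the difference between the control states. Over 14714 tested genes (94%) with a reference transcript, the log2 fold change correlated with length at a Spearman coefficient of 0.349 and with GC content at −0.255, both given as descriptions across genes. The median log2 fold change went over 5 equal classes of length from −0.17 in the shortest through −0.02, 0.09 and 0.20 to 0.43 in the longest. Over 5 classes of GC content it went from 0.33 at the lowest through 0.19, 0.08 and −0.01 to −0.10 at the highest. Genes called higher with siRNA had a median transcript length of 5710 bases and 44.9% GC, those called lower 2190 bases and 55.7%, and all genes 3606.5 bases and 48.2%. The SAM68 libraries gave 0.404 with length and −0.17 with GC. Between the 2 libraries of a control group, the difference correlated with GC content at 0.434 for siRNA and 0.548 for plasmid, and with length at 0.094 and −0.118. GC content thus moved with replicate differences more than with the difference between the states, and length moved with the states more than with replicates. With an offset for GC content 1689 genes were called, among them 195 of the 198 called genes it could test. The part of length, GC content or RNA quality in these differences was not tested.

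**Figure D5:**
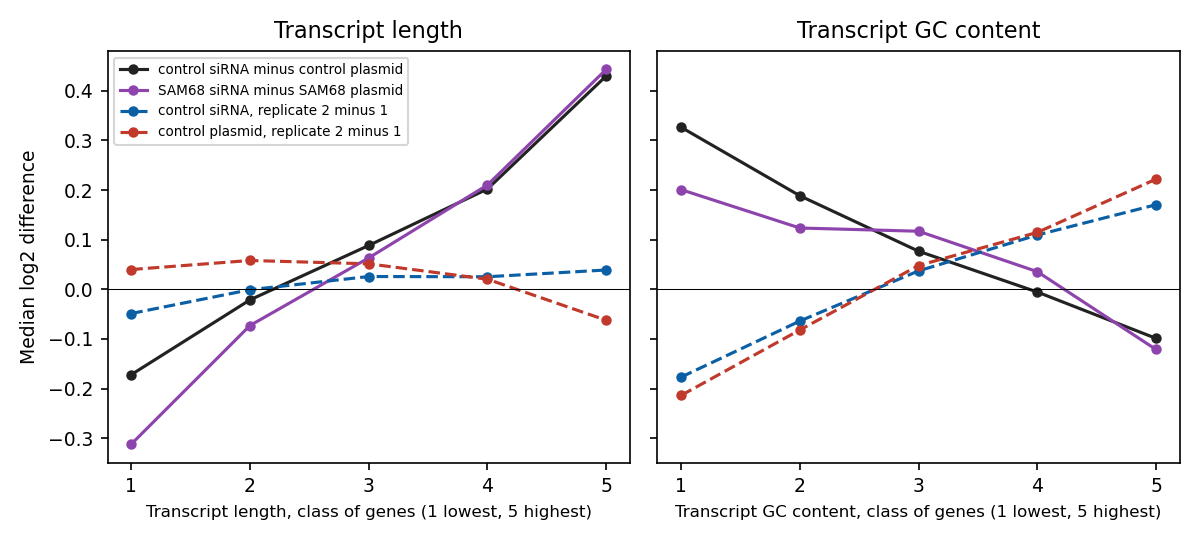
Median log2 fold change (y axis) of tested genes in 5 equal classes of transcript length (left) and GC content (right), for the comparison of the control libraries and that of the SAM68 libraries (solid lines) and for replicate 2 minus replicate 1 within each control group (dashed). Between the states the medians rise with length, from −0.17 to 0.43 between the controls, and fall with GC content, from 0.33 to −0.10.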

How the data were processed

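Poly(A) RNA was measured in 4 control and 4 SAM68 U2OS libraries. Per the submitters' processing notes, STAR, RSEM and the genome build hg19 were used. Tool versions and the strand setting were not stated in any source at hand, so overlapping, antisense and near-identical genes are uncertain. The deposited expected counts, RSEM's estimated read counts per gene without normalization, were rounded. The TPM values deposited by the authors served for levels between genes, and the deposited effective length, in bases, as an offset in 1 alternative. The files hold 27434 rows, of which 25321 were named by gene number. Names, transcript lengths and GC content came from GENCODE and RefSeq tables of another build than the files, and promoters from RefSeq GRCh38.p14.

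The 8 libraries in 4 groups were fitted together with edgeR's quasi-likelihood test (edgeR 4.0.16, limma 3.58.1, R 4.3.3) after filterByExpr and TMM scaling, with Benjamini-Hochberg adjustment over 15658 genes and a threshold of 0.05. The biological coefficient of variation was 20.0%. Log2 fold changes are siRNA over plasmid with SE, and CPM are per library. The fit was also run on simulated data with a common spread for all genes and groups. The groups here differed in spread (chi-square per gene 13.8 to 60.1), so that run says nothing about the number of calls. Named were KHDRBS1, NORAD, PUM2, the 15 largest called differences in each direction with a mean of at least 5 CPM and no overlap, the first 3 members of each list and the up to 5 with the smallest p, and any member of the sensing and RNA interference lists. The comparison, the 22 lists and their members were chosen with earlier results of these data known, and 6 lists, with the genes named from them and others called, after the values were seen. So were ISG15, MX1, MMP3 and the markers at or near 0, which fall outside the naming rule. Alternatives were DESeq2 1.42.0, other scalings and filters, offsets for effective length and GC content, a block for replicate numbers, the 4 controls alone and leaving out each library. Some genes are not reported here.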

Additional observations from a re-analysis of the deposited data

How the results depend on the processing

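The number of called genes depended strongly on the processing. The direction of the 204 genes did not change in any setting that tested them. Each setting refit the libraries by which these genes were called, so the stable direction is no separate support. For the control comparison, 204 genes became 1020 with DESeq2, 1609 without a filter on low counts, 1689 with the GC content offset and 3386 with only the 4 control libraries. For the SAM68 libraries, 559 became 1775, 2314 and 2813 in the first 3 of these. The difference between the comparisons had 0 calls by edgeR, and 1 with DESeq2, 1 with upper-quartile scaling, 15 without a filter, 1 with the stricter filter and 1 with the GC content offset. Leaving out 1 library at a time gave 1 to 1477 calls between the controls, 2 to 1364 between the SAM68 libraries, 783 to 5420 for 4 against 4 libraries and 0 to 3 for the difference. Leaving out a SAM68 library from the control comparison, and the crossed numbers below, were alternatives chosen after seeing the data. A lone library of a group was assumed to vary like the other groups. The cause of these shifts was not tested.

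Replicate numbers were not treated as pairs in the main fit, and the labels give no shared batch. Same-numbered libraries deviated with a correlation of 0.127 in the controls and −0.207 in the SAM68 groups. In both control groups, replicate 2 minus replicate 1 rose with GC content (0.434 for siRNA and 0.548 for plasmid). Whether same-numbered control libraries share a batch was not tested. With the replicate number as a block, 296 genes were called between the controls and 860 between the SAM68 libraries. The block together with the GC content offset gave 2424, 3397 and, for 4 against 4 libraries, 6249 calls. Crossing the numbers of the SAM68 plasmid libraries gave 2541 calls.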

Other observations

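Other called genes outside the lists, named after their values were seen, include further matrix and developmental genes higher with control siRNA. MMP13, a collagenase of bone and cartilage, was at 16.5 and 16.8 CPM with control siRNA and at 4.25 and 2.25 CPM with control plasmid (log2 2.38 ± 0.30, adjusted p = 0.0129 by edgeR). COL11A1, a cartilage collagen, was at 50.5 and 93.3 CPM against 24.9 and 21.1 CPM (log2 1.65 ± 0.30, adjusted p = 0.0388). The laminin gene LAMA5 was at 46.1 and 80 CPM against 13.1 and 19 CPM (log2 1.97 ± 0.36, adjusted p = 0.0372). Their groups did not overlap, as in 66% of all tested genes. PDGFRA, a growth factor receptor of mesenchymal cells, was at 26.7 and 32.3 CPM against 8.79 and 8.01 CPM (log2 1.81 ± 0.21, adjusted p = 0.0129), and GLI1, a target of Hedgehog signalling, at 15.1 and 27 CPM against 6.1 and 6.81 CPM (log2 1.70 ± 0.33, adjusted p = 0.0473). BMP4 (log2 1.02 ± 0.18) and its receptor gene BMPR2 (1.27 ± 0.23) were both called higher. Beside GUCY1A2, which helps make cyclic GMP, PDE5A, which degrades it, was at 17.2 and 20.6 CPM with siRNA and at 6.1 and 4.28 CPM with plasmid (log2 1.88 ± 0.29, adjusted p = 0.0233). CDKN2B, a cyclin-dependent kinase inhibitor, was at 14.4 and 19.3 CPM against 4.32 and 3.41 CPM (log2 2.13 ± 0.33, adjusted p = 0.0232).

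In the other direction, the hyaluronan receptor gene CD44 was at 345 and 394 CPM with plasmid and at 196 and 161 CPM with siRNA (log2 −1.05 ± 0.20, adjusted p = 0.0429). BCL2A1, an anti-apoptotic relative of BCL2, was at 3.9 and 4.14 CPM against 0.992 and 0.54 CPM (log2 −2.40 ± 0.36, adjusted p = 0.0232), and PNP, a purine salvage enzyme, at 101 and 110 CPM against 53.5 and 45.1 CPM (log2 −1.10 ± 0.18, adjusted p = 0.0289). In none of these genes did a plasmid library overlap an siRNA library, as in 66% of all tested genes. They were picked from the called genes, so nothing is read from the lack of overlap.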
